A study of Zea mays with 3 samples.

Results

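The 8 genes described here are regulators of the iron response and transporters of metals and metal ligands in maize roots. They comprise the vacuolar transporters VIT1 (GRMZM2G074672) and ZIF1 (GRMZM2G161310), a pair of YSL7 genes (GRMZM2G120922 and GRMZM2G062844), the transcription factors PYE-like (GRMZM2G017145) and bHLH29-like (GRMZM2G313756), the plastid protein TIC21 (GRMZM2G145500) and the citrate carrier MATE1 (GRMZM5G870170). They were chosen by name, as the genes of micronutrient handling that the study lists, and every isoform with probes on the array was taken. The study listed them for isoforms that differed between Urea+NBPT and Urea roots, a comparison that used these same arrays. This gave 20 of 59756 transcripts, 8 of 39219 genes and 46 of 139000 probes.

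RNA was measured on 3 NimbleGen maize arrays, which carry 1 fluorescence intensity for each probe. All arrays held roots of the same group, Urea+NBPT, in which maize plants (cv. PR33T56, a hybrid per the labels and an inbred line per the methods) were 5 days old when they were given 0.5 mM urea with 0.897 μM NBPT, an inhibitor of urease, for 8 h. Each array was a separate biological replicate of pooled whole roots from 6 plants, in a nutrient solution that also held 20 μM NaFe-EDTA, 0.2 μM MnSO4, 0.2 μM ZnSO4 and 0.05 μM CuSO4. Roots without NBPT were not analysed here, so the values are levels in Urea+NBPT roots and no effect of NBPT can be read from them.

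Grasses take up iron by releasing mugineic acids, which bind ferric iron in the soil, and by importing the complex through YELLOW STRIPE transporters. Inside the plant, nicotianamine and citrate keep iron, zinc and other metals soluble, and the vacuole and the plastid store or use what the cytosol does not hold. Transcription factors of the bHLH family switch these genes on and off with the iron supply.

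VIT1 and MATE1 were also targets of real-time RT-PCR in the study. The primers are shown because they are the sequences with which the study assayed these genes, 5′ to 3′, with the last 5 bases at the 3′ end, where the polymerase extends, in capitals. The pair for VIT1 is listed under GRMZM2G074672_T02 and the pair for MATE1 under GRMZM5G870170_T01, and whether either pair also matches other isoforms was not tested.
VIT1 forward: gagatcgccgacatCCTGT
VIT1 reverse: catcatgaactccagCCACG
MATE1 forward: tcccacttgttagcgTCACA
MATE1 reverse: tcactgaccgaaacaTTGCG
The VIT1 primers have 19 and 20 bases with a GC content of 57.9% and 55.0%, and the MATE1 primers have 20 bases each. The RT-PCR values themselves were not used here.

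Levels are given as normalized log2 intensities, 1 per transcript and array, summarized over the 2 or 3 probes of the transcript. The background of each array was read from 1663 random control probes. A transcript was called detected when its level exceeded the 95th percentile of these controls (8.24, 8.30 and 8.24 in replicates 1, 2 and 3) in all 3 arrays. Of the controls themselves, 2.65% did so. They were taken as single probes, so this share is not an error rate of the calls for transcripts. Levels of different transcripts are not compared with each other, because probes bind with different strength. In whole roots, fewer cells of a type and less RNA per cell cannot be told apart. All 4 transcripts of the root hair and crown root genes rth3 and rtcs were detected. Beside 62.6% of all transcripts on the array, 10 of 19 transcripts of the leaf genes (52.6%) were also detected. They included all 3 of ppdk1, pyruvate phosphate dikinase, at means of 13.71 to 14.53, where replicate 1 of T01 and T02 lay 1.09 and 1.05 above the mean of the others. Those of ppc1, phosphoenolpyruvate carboxylase, and lhcb3 T01, a light-harvesting protein, had means of 11.08 and 10.86, and ssu1, the small subunit of Rubisco, had 0 of 2 detected. The part of leaf transcripts in the levels below was not tested. Over all transcripts the replicates correlated at 0.978 or more, where transcripts are not independent replicates.

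All 8 genes had at least 1 detected isoform, as did 67.9% of all genes on the array. The gene shares are not alike, since the 8 genes had 20 transcripts and the 39219 genes of the array had 59756. Of the 20 transcripts, 16 were detected (80%), where 62.6% of all transcripts on the array were. The study listed the genes from these same arrays, so the shares in this paragraph are no independent comparison. The other 4 transcripts, VIT1 T01, ZIF1 T02, PYE-like T04 and TIC21 T04, lay below the background threshold in all 3 arrays. By limma, 15 transcripts lay above the threshold by more than the spread between replicates (60.8% over the array) and 4 lay below it (28.1% over the array), with VIT1 T02 in neither set. The median distance from the threshold was 1.47 over the 20 transcripts and 1.07 over the array. Every probe was above the threshold in all arrays in 9 of the 20 transcripts (42.1% over the array), only some were in 8 (32.2% over the array) and none in 3 (25.7% over the array). Of the 16 detected transcripts, 7 were detected with only some of their probes above the threshold. Over the array 62.6% of transcripts were detected and 42.1% had every probe above it, so such calls also occurred in other genes. Their share among the detected transcripts of the array was not computed.

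**Figure D1:**
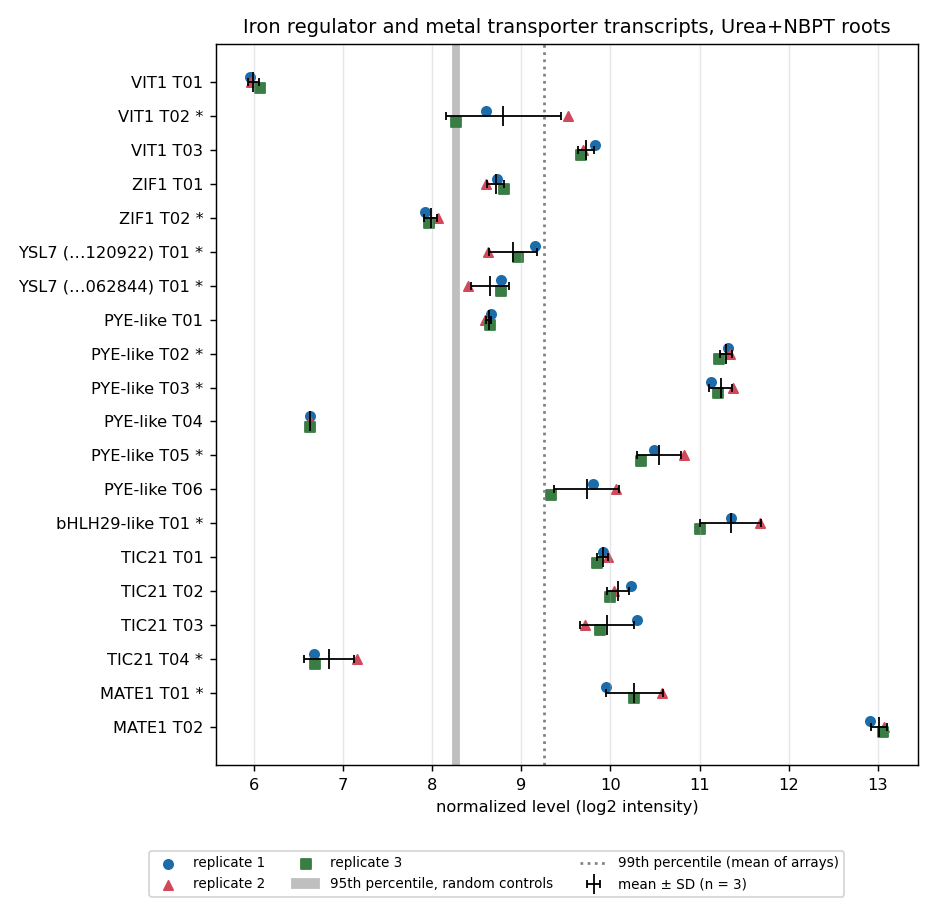
Normalized log2 level of each of the 20 transcripts in the 3 Urea+NBPT replicates, with the mean and SD (n = 3), the detection threshold, which is the 95th percentile of random controls (grey band, range over arrays), and the 99th percentile (dotted line, mean over arrays); asterisks mark the isoforms that the study lists. VIT1 T01, ZIF1 T02, PYE-like T04 and TIC21 T04 lie left of the grey band, and VIT1 T02 has the widest spread.

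VIT1 encodes a transporter that moves iron into the vacuole. Its 3 isoforms on the array gave different pictures, with T01 below the threshold, T03 above it in every replicate and T02, the isoform that the study lists, above it with a wide spread. VIT1 T02 had levels of 8.61, 9.52 and 8.27 in replicates 1, 2 and 3 (mean 8.80 ± 0.65, SD, n = 3). The highest was replicate 2, and replicate 3 lay just above its array's threshold of 8.24. The distance of the mean from the threshold was 0.54 (SE 0.24, 95% interval -0.10 to 1.18), which did not pass the test (limma, adjusted p = 0.0904). VIT1 T02 was the transcript with the largest SD among the 20, and 2.82% of all transcripts on the array had a larger one.

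The replicate difference of VIT1 T02 was present in each of its 3 probes. At position 66 of the transcript the deposited intensities were 251, 540 and 196 in replicates 1, 2 and 3. At position 77 they were 372, 718 and 263, and at position 239 they were 7233, 8905 and 6339. Replicate 2 was the brightest at all 3 positions, at 2.41, 2.26 and 1.31 times the mean of the other replicates. Positions 66 and 77 lie close together, and whether these probes overlap was not tested. Only the probe at position 239 exceeded the threshold in every array. The call for VIT1 T02 varied with the arrays and the summary used. When a replicate was left out, the levels of the remaining arrays were computed anew, median polish included, and changed too. Without replicate 1 or without replicate 2 VIT1 T02 was no longer detected, with distances of 0.56 (limma, adjusted p = 0.13) and 0.13 (adjusted p = 0.368). Without replicate 3 the distance was 0.79 and passed the test (adjusted p = 0.0197). The missing replicate and the new summary were not told apart. With the mean of the probe values in place of median polish, the distance was 1.71 (adjusted p = 0.000258).

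The other VIT1 isoforms had close replicates. VIT1 T03 had levels of 9.83, 9.69 and 9.66 (mean 9.73 ± 0.09), a distance of 1.47 from the threshold (adjusted p = 5.42e-05), with 2 of its 3 probes above the threshold in all arrays. VIT1 T01 had levels of 5.95, 5.96 and 6.06 (mean 5.99 ± 0.06) and lay below the threshold (distance -2.27, adjusted p = 1.04e-05). None of the 3 probes of T01 exceeded 69.3 in intensity in any array. Replicate 2, which stood out in T02, differed from the mean of the others by -0.04 in T01 and by -0.05 in T03.

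ZIF1 belongs to the major facilitator superfamily, and in Arabidopsis it carries nicotianamine into the vacuole. T01 passed the threshold and T02, which the study lists, did not. ZIF1 T01 had levels of 8.73, 8.61 and 8.80 (mean 8.71 ± 0.10, SD, n = 3), a distance of 0.45 above the threshold (adjusted p = 0.0068). ZIF1 T02 had levels of 7.92, 8.06 and 7.97 (mean 7.98 ± 0.08), below the threshold in all arrays (distance -0.28, adjusted p = 0.0226). In both isoforms the 3 replicates lay close together, within 0.19 and 0.15 of each other, and the distance from the threshold was small.

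In each ZIF1 isoform 1 of 2 probes passed the threshold. In T01 the probe at position 308 had intensities of 1737, 1533 and 1854, and the probe at position 1229 had 85.2, 81.3 and 89.4. In T02 the probe at position 303 had 632, 810 and 640, and the probe at position 347 had 72.8, 69.5 and 78.3. The probes at positions 308 and 303 exceeded the threshold in all arrays, although T02 was not called detected as a transcript, and the other probes exceeded it in none. Leaving out a replicate changed no detection call of ZIF1, but some limma calls no longer passed. T02 had a distance of -0.26 without replicate 1 (adjusted p = 0.171) and -0.28 without replicate 3 (adjusted p = 0.129). T01 had 0.40 without replicate 3 (adjusted p = 0.0531). T01 still passed without replicate 1 (adjusted p = 0.0451). Without replicate 2 both passed (limma, adjusted p = 0.00408 for T01 and 0.0385 for T02).

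The YSL genes belong to the oligopeptide transporter family, whose members carry metals bound to nicotianamine or mugineic acids. Both YSL7 genes have a single isoform on the array, and both were detected at levels slightly above background. YSL7 GRMZM2G120922_T01 had levels of 9.15, 8.62 and 8.96 (mean 8.91 ± 0.27, SD, n = 3), a distance of 0.65 (SE 0.14, adjusted p = 0.00789). YSL7 GRMZM2G062844_T01 had levels of 8.77, 8.40 and 8.77 (mean 8.64 ± 0.22), a distance of 0.39 (adjusted p = 0.0326). In both genes the lowest was replicate 2, by 0.43 and 0.37 relative to the mean of the other replicates.

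At the level of probes the low value of replicate 2 came from some probes only. In GRMZM2G120922_T01 the probe at position 2758 had intensities of 837, 406 and 762, whereas the probe at position 2470 had 361, 350 and 300. In GRMZM2G062844_T01 replicate 2 was the lowest at position 987 (425, 289 and 378) and at position 1991 (419, 229 and 472), and the highest at position 1458 (624, 949 and 783). Both probes of GRMZM2G120922_T01, but only the probe at position 1458 of GRMZM2G062844_T01, exceeded the threshold in all arrays. For GRMZM2G062844_T01 the call changed when a replicate was left out and the levels were computed anew from the remaining arrays. The transcript was no longer detected without replicate 1 (distance 0.17, limma, adjusted p = 0.402) or without replicate 3 (distance 0.25, adjusted p = 0.268). Without replicate 2 it had a distance of 0.61 (adjusted p = 0.00238). With all arrays each of its levels passed, so the lost calls came with changed levels of the remaining arrays. The part of the summary method in this was not tested.

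**Figure D2:**
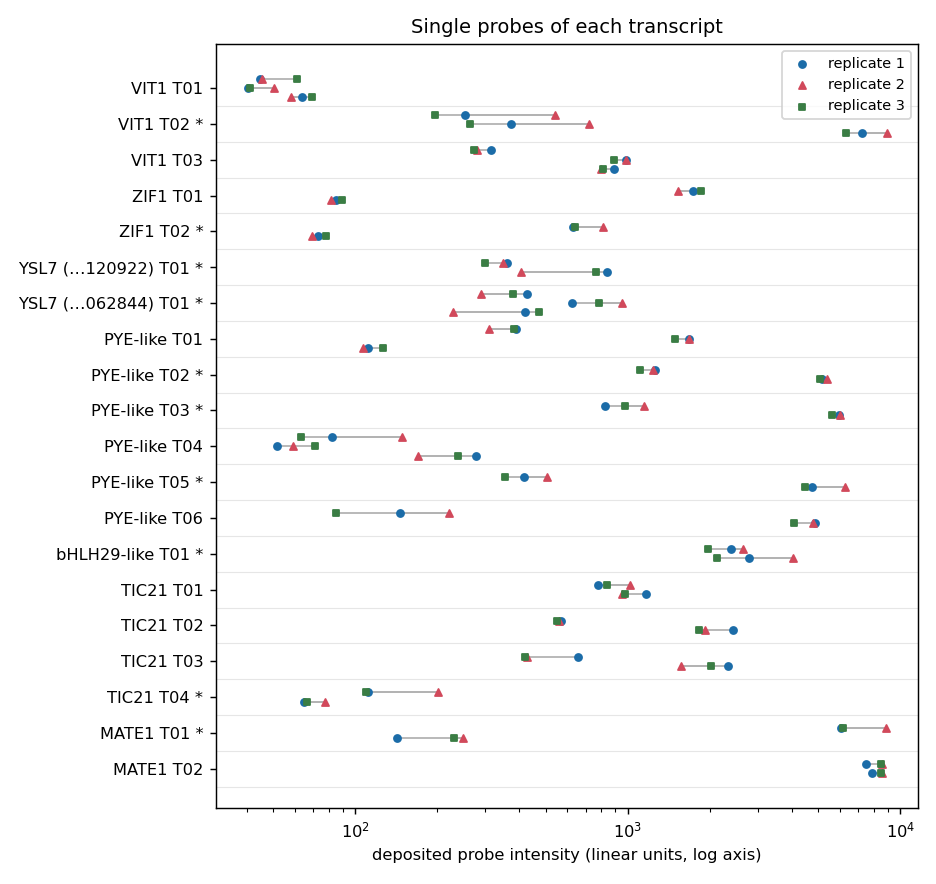
Deposited intensity of each of the 46 probes in the 3 replicates, on a log axis, with the 2 or 3 probes of a transcript from the lowest to the highest position in it, top to bottom, joined over replicates by a line; asterisks mark the isoforms that the study lists. In VIT1 T02 replicate 2 is the rightmost point at all 3 probes, and in YSL7 GRMZM2G062844_T01 it is leftmost at 2 probes and rightmost at 1.

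The bHLH transcription factors include members that act on the iron response. PYE-like is named after POPEYE, which in Arabidopsis restrains iron homeostasis genes in the root under low iron supply. PYE-like had 6 isoforms on the array, 5 of them detected, and the 3 that the study lists (T02, T03 and T05) lay above the threshold in every replicate. PYE-like T02 had levels of 11.32, 11.35 and 11.22 (mean 11.30 ± 0.07, SD, n = 3), a distance of 3.04 (adjusted p = 3.64e-06). PYE-like T03 had levels of 11.13, 11.38 and 11.21 (mean 11.24 ± 0.13, distance 2.98), and T05 had 10.49, 10.82 and 10.34 (mean 10.55 ± 0.25, distance 2.29). Replicate 2 was the highest in all 3 of these isoforms, by 0.07, 0.21 and 0.41 relative to the mean of the others, and every probe of the 3 isoforms exceeded the threshold in all arrays.

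Of the PYE-like isoforms that the study does not list, T01 and T06 were detected and T04 was not. PYE-like T06 had levels of 9.80, 10.06 and 9.33 (mean 9.73 ± 0.37, distance 1.47, adjusted p = 0.000446). The probe at position 1346, with intensities of 4866, 4781 and 4069, exceeded the threshold in all arrays, and the probe at position 760, with 146, 221 and 84.8, in none. Replicate 3 was the lowest at both positions, and replicate 2 was the highest only at position 760. PYE-like T01 had levels of 8.65, 8.59 and 8.65 (mean 8.63 ± 0.03, distance 0.37, limma, adjusted p = 0.00908). Its single probes spread more than this summary, with SDs of 0.175, 0.1 and 0.109. With levels computed anew from the remaining arrays, its distance no longer passed the test without replicate 1 (0.23, adjusted p = 0.237) or without replicate 3 (0.24, adjusted p = 0.185). PYE-like T04 was at 6.63 in all 3 arrays, below the threshold (distance -1.63). The SD of 0 of T04 arises in the summary by median polish, which can return equal values: its probes ranged from 63.1 to 148 at position 907, from 51.6 to 71.1 at position 1152 and from 170 to 276 at position 1213.

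The other regulator, bHLH29-like, is annotated as a FER-like factor, and the Arabidopsis bHLH29 (FIT) activates genes of root iron uptake. bHLH29-like (GRMZM2G313756_T01) had levels of 11.35, 11.68 and 11.01 (mean 11.35 ± 0.34, SD, n = 3), a distance of 3.09 (SE 0.14, adjusted p = 1.99e-05). Replicate 2 was the highest and replicate 3 the lowest, 0.67 apart, and all 3 lay above the threshold. Its 2 probes had the same order of replicates, with 2401, 2647 and 1966 at position 526 and 2794, 4041 and 2127 at position 1039. The SD of 0.34 was larger than that of most transcripts, since 16.8% of the array had a larger one.

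TIC21 encodes a protein of the inner membrane of the plastid envelope that has been linked in Arabidopsis to iron transport into the plastid. Of its 4 isoforms, T01, T02 and T03 were detected with both probes each above the threshold, whereas T04, the isoform that the study lists, was not detected with either probe. TIC21 T04 had levels of 6.68, 7.16 and 6.68 (mean 6.84 ± 0.28, SD, n = 3), a distance of -1.42 (adjusted p = 0.000205). In T04 the highest level was that of replicate 2, and its probes had intensities of 111, 200.8 and 110 at position 31 and of 64.6, 77.0 and 66.6 at position 40. All 3 levels of T04 lay more than 1 below the threshold of their array.

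Replicate 2 was also the highest in the detected TIC21 T01, by 0.09 relative to the mean of the others, but not in T02 or T03. TIC21 T01 had levels of 9.92, 9.97 and 9.85 (mean 9.91 ± 0.06, distance 1.65). TIC21 T02 had 10.23, 10.04 and 10.00 (mean 10.09 ± 0.12, distance 1.83), and T03 had 10.30, 9.71 and 9.88 (mean 9.96 ± 0.30, distance 1.70, adjusted p = 0.000221). Replicate 1 was the highest in T02 and T03, and the replicates of T01 differed by 0.13 at most. In T03 replicate 1 was the brightest at both probes, with 656, 427 and 420 at position 50 and 2330, 1567 and 2022 at position 879.

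MATE1 encodes a carrier of the MATE family that releases citrate, a ligand of iron and aluminium, from root cells. Both isoforms were detected. MATE1 T01, which the study lists, had levels of 9.94, 10.58 and 10.27 (mean 10.27 ± 0.32, SD, n = 3), a distance of 2.01 (SE 0.13, adjusted p = 8.25e-05). MATE1 T02 had levels of 12.91, 13.07 and 13.06 (mean 13.01 ± 0.09), a distance of 4.75 (adjusted p = 1.84e-06). Replicate 1 was the lowest in both, and the replicates spread over 0.64 in T01 and over 0.15 in T02.

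The isoforms of MATE1 differed in how many of their probes passed. In MATE1 T01 the probe at position 854 had intensities of 6065, 8829 and 6141 and exceeded the threshold in all arrays, and the probe at position 1013 had 143, 249 and 230 and exceeded it in none. Both probes of MATE1 T02 exceeded it in all arrays, with 7499, 8551 and 8485 at position 1227 and 7896, 8569 and 8532 at position 1626. Whether a probe of these transcripts also matches another isoform or gene was not tested, since probe sequences were not used here, so isoforms of 1 gene are not independent measurements.

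**Figure D3:**
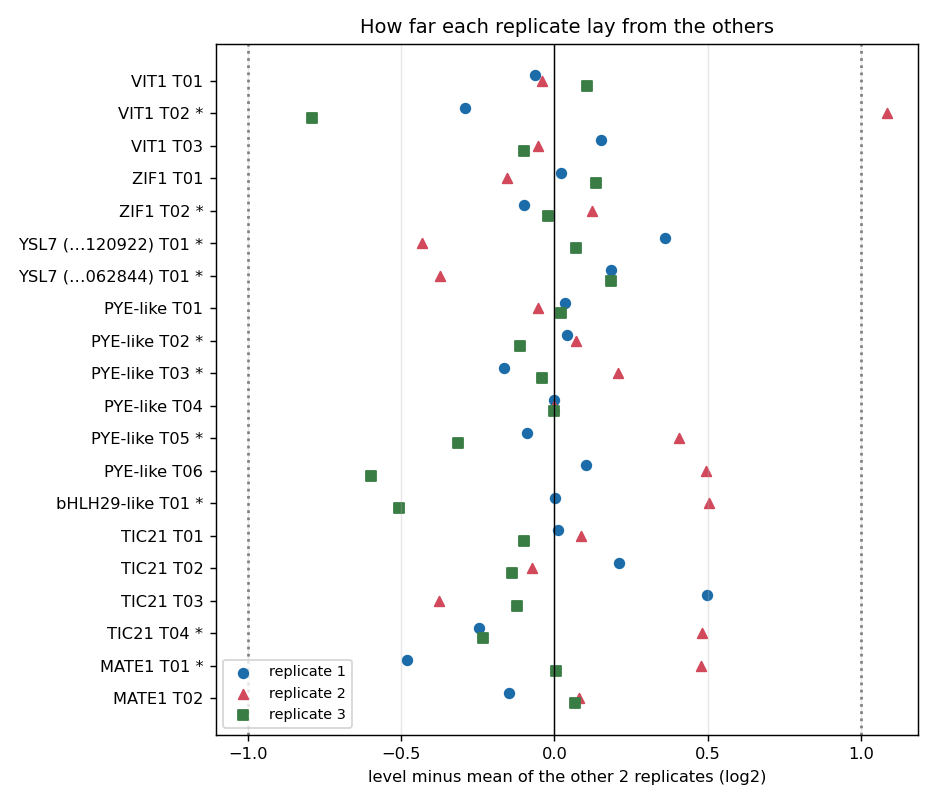
Difference of each replicate from the mean of the other 2 replicates (log2) for the 20 transcripts, with dotted lines at -1 and 1; asterisks mark the isoforms that the study lists. Replicate 2 of VIT1 T02, at 1.08, is the only point beyond the lines, and replicate 2 is the lowest point of both YSL7 genes.

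The spread between replicates was small in most of the 20 transcripts, with a median SD of 0.13 (range 0 to 0.65), beside 0.18 over the array. A replicate lay more than 1 from the mean of the others only in VIT1 T02, by 1.08 in replicate 2. Over the array 3.46% of transcripts had a replicate that far from the others, and 2.26% had replicate 2 that far above them. This was not so for VIT1 T02 with the mean of probe values. With a replicate left out, the rule was a difference of more than 1 between the remaining arrays. VIT1 T02 met it without replicate 1 but not without replicate 3. Leaving out replicate 2 takes away the deviating value itself, so its result there is no check. Replicate 2 was the highest in 11 of the 20 transcripts, where 32.9% over the array had it highest. Among the 10 isoforms that the study lists it was the highest in 8 and the lowest in 2, the YSL7 genes, and among the 10 other isoforms it was the highest in 3. The median SD was 0.26 for the listed isoforms and 0.09 for the others. The study chose the listed isoforms on these same arrays, so these counts are no independent description of the genes, and no test was made of the difference. Both sets had the same number detected, 8 of 10.

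Other genes of iron and metal handling, found by symbol in the reference gene table, gave 15 transcripts of 11 genes on the array. Of these, 11 transcripts (73.3%) of 9 genes (81.8%) were detected, beside 62.6% of transcripts and 67.9% of genes over the array. The genes of this list make and move the mugineic acids and nicotianamine, take up metals or store iron. In the synthesis of mugineic acids, DMAS1 T01, the deoxymugineic acid synthase, had levels of 12.97, 13.03 and 12.97 (distance 4.73), and nas2 T01, a nicotianamine synthase, had 11.78, 12.32 and 11.60. For YS3, a transporter that releases mugineic acids, T02 had 11.38, 11.32 and 10.93 (distance 2.95) and T01 had 8.99, 9.27 and 8.44 (distance 0.64, adjusted p = 0.017). Replicate 3 was the lowest in nas2 T01 and in both YS3 transcripts, and DMAS1 T01 had an SD of 0.04.

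Among the transporters and stores of this list, the YSL gene ysl12 had levels of 12.07, 12.48 and 12.60 (distance 4.12), above the threshold by more than the spread between replicates. The NRAMP metal transporter Nramp1 T01 had 10.24, 10.77 and 10.97 (distance 2.40), and the zinc and iron transporter family member ZIP4 had 9.21, 9.16 and 9.72 (distance 1.10, adjusted p = 0.00128). Ferritin fer1 T01, the iron store of the plastid, had 13.53, 13.19 and 13.20 (distance 5.05). Replicate 1 was the lowest in ysl12 and Nramp1 T01 and the highest in fer1 T01. The 4 transcripts not detected, named after their values were seen, were fer1 T02, Nramp1 T02, ysl17 and ysl11. In the list, replicate 2 was the highest in 7 of 15 transcripts, where 32.9% over the array had it highest. The median SD was 0.23, and no replicate lay more than 1 from the others in any transcript of the list.

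**Figure D4:**
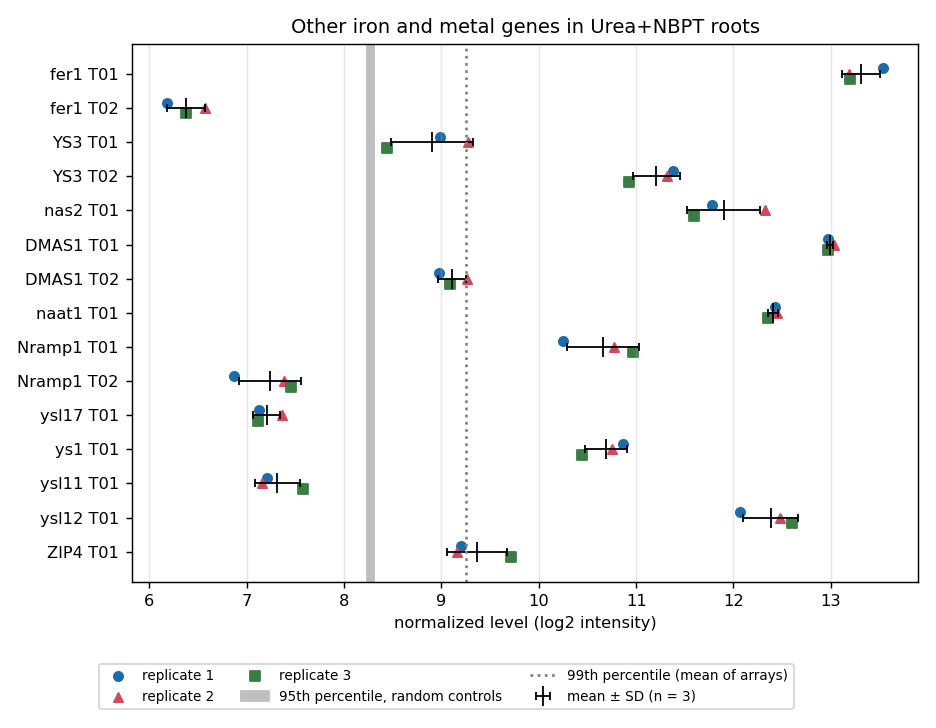
Normalized log2 level of the 15 transcripts of other iron and metal genes in the 3 Urea+NBPT replicates, with the mean and SD (n = 3) and the same background lines as in the plot of levels. The 4 transcripts left of the grey band, fer1 T02, Nramp1 T02, ysl17 and ysl11, were not detected.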

How the data were processed

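Roots of Urea+NBPT plants were measured on 3 arrays, the replicates of a single group as the labels number them. The authors hybridized Cy3-labelled cDNA to NimbleGen maize arrays, scanned them and extracted 1 intensity per probe with NimbleScan, and the submitters' processing notes name RMA, with no version. The deposited intensities look as after quantile normalization, since sorted values differed by at most 0.183% between arrays, and the deposited value table differed from the array files in 0 probes. Transcripts were predicted from the B73 reference; the gene names used here come from a table of another assembly, where 5 of the 8 genes were found, so no coordinates are given.

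Intensities were corrected with normexp (offset 50), quantile normalized, put on the log2 scale from the deposited values and summarized per transcript by median polish, with R 4.3.3 and limma 3.58.1. Levels minus the array's threshold were tested over all 59756 transcripts with limma (intercept only, eBayes, Benjamini-Hochberg, adjusted p under 0.05). The summary, detection, limma and replicate steps were tested on simulated data, without background correction or normalization. Levels planted above or below the threshold were the same in every probe and not close to it. Calls near the threshold were therefore not covered. The number of arrays limits the precision. All isoforms of the 8 genes are named, and of the iron and metal list, in each class, the detected transcripts with the largest distance and the largest range between replicates. Of 7 root, 11 leaf and 1 pollen marker genes, 2, 9 and 0 were found in the reference table. The genes, lists, tests and alternatives were chosen with earlier results of these data known. Alternatives were a 99th percentile threshold, detection in at least 2 arrays or with every probe, other background corrections (offset 16 or none), scaling to 1 median or no normalization, the mean of probe values, the value table, eBayes with trend and leaving out each replicate. With a replicate left out, background correction, normalization, median polish and thresholds were redone on the remaining arrays, so their levels could change too.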

Additional observations from a re-analysis of the deposited data

How the results depend on the processing

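With the 99th percentile of the random controls as threshold (9.15, 9.22 and 9.39 in replicates 1, 2 and 3), 10 of the 20 transcripts were detected, and 47.4% of the array. The distance changed sign in 5 transcripts, to -0.46 for VIT1 T02, -0.54 for ZIF1 T01, -0.35 for YSL7 GRMZM2G120922_T01, -0.61 for YSL7 GRMZM2G062844_T01 and -0.62 for PYE-like T01. When every probe had to pass, 9 of the 20 transcripts, 5 of the 15 on the iron and metal list and 42.1% of the array were detected. With the mean of probe values, 0 transcripts had a replicate more than 1 from the others. Leaving out each replicate gave 14 to 15 of the 20 transcripts detected, beside 63.1% to 64.6% of the array. With all replicates these were 16 and 62.6%. By limma 13 to 15 lay above the threshold, beside 35212 to 36902 of the 59756 transcripts of the array. On the iron and metal list 11 were detected each time. Of the 20 transcripts, 0 to 1 had a replicate apart, with a median SD of 0.105 to 0.155. An SD over fewer arrays is not directly comparable. Other background corrections and eBayes with trend changed no call of the 20 levels. Scaling to 1 median, no normalization and the value table changed none either, but these are no check. The deposited intensities already had nearly the same distribution in each array, and the value table held the same values. No paired analysis was possible because all arrays belong to a single group. Levels near the random controls, as in VIT1 T02, ZIF1, both YSL7 genes and PYE-like T01, are those that 3 arrays resolve least.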
